A study of Mus musculus with 6 samples.

Results

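Cytosolic ribosomal protein genes encode the protein parts of the ribosome, and 84 of the 26789 genes measured in these libraries belong to them. They were chosen by gene symbol, as genes named Rpl or Rps with a number, the stalk genes Rplp0 to Rplp2, and Rpsa, with names that end in -ps left out. Of these, 50 belong to the large subunit and 34 to the small subunit. The genes were measured in microglia, the brain's own immune cells, from the nucleus of the solitary tract (NST), the first relay of taste in the brainstem, of C57Bl/6 mice on postnatal day 15. Controls, whose mothers ate a control diet, were compared with E3–E12 diet mice, whose mothers ate a diet low in sodium between embryonic days 3 and 12, to ask how the early maternal diet altered microglial gene expression. There were 3 libraries per group, each made from the pooled tissue of 6 littermates of both sexes, so each library is 1 litter. The labels name no transgene or mutant allele. The study describes sorting with magnetic beads against CD11b, a surface protein that other myeloid cells also carry. The sample labels instead describe laser microdissection, so the method of isolation is not certain. Values are given below in the order of replicates 1, 2 and 3 within each group.

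The ribosome joins amino acids into protein. Its small subunit reads the mRNA and its large subunit forms the peptide bond. One copy of nearly every ribosomal protein is needed per ribosome, so cells make them in matched amounts, and their mRNAs share a tract of C and T letters at the very start, through which growth signals control their translation together. Mammalian genomes also hold a great many processed copies of these genes, most of them dead pseudogenes, whose near-identical sequence makes short reads difficult to place.

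The windows before and around the transcription start were examined because the members are known to be controlled together. A promoter entry of RefSeq (GRCm38.p6) was found for 61 of the 84 members, with 73 start sites in all, each a window of 300 bases from 250 before the start to 50 after it. The letters CCGGAAG, bound by factors of the ETS family such as GABP, were found on either strand in 27 of the 73 member windows (37.0%), against 8.86% of all 32851 windows. The letters GGGCGG, bound by SP factors, were found in 44 member windows (60.3%) against 35.7% of all windows. AAGATGGC, the YY1 motif, was found in 8 (10.96%) against 2.75%. An unbroken run of at least 10 C or T on the coding strand, within 50 bases of the start on either side, was found in 47 member windows (64.4%) against 18.1% of all windows. A match of letters is a description and does not show that a factor binds.

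Stretches of 60 bases, 50 before the start and the first 10 transcribed, are shown for 6 of the members whose values did not overlap between diets: the highest 4 fold changes among them, Rpl27, Rps2, Rpl11 and Rps13, and also Rpl34 and Rpl13a, which carry motif letters in this stretch. Of the 11 stretches of these members, the 4 with a match are all among the lines shown. The 5 others left out, among them a second start of Rpl34, hold none of the letters in this short stretch. In the wider windows described above, the C and T run was found at 7 of these 11 starts. GGGCGG was found at 8 of them, CCGGAAG at 3 and AAGATGGC at 1. Capitals mark any match to the motifs or to the C and T run, and neighbouring matches run into each other. The lines are written 5′ to 3′ on the strand of the gene.
Rpl27 (chr11:101442195-101442254, plus strand): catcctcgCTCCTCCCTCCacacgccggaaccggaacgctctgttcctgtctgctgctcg
Rps2 (chr17:24720013-24720072, plus strand): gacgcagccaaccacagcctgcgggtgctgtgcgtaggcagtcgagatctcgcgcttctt
Rpl11 (chr4:136053384-136053443, minus strand): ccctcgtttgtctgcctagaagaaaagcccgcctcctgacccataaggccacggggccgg
Rps13 (chr7:116334181-116334240, minus strand): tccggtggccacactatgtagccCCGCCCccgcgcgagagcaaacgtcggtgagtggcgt
Rpl34 (chr3:130730328-130730387, minus strand): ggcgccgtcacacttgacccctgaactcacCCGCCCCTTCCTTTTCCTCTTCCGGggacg
Rpl13a (chr7:45128736-45128795, minus strand): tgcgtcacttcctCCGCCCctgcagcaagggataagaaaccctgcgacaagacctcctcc
These 6 stretches differ in what they hold. Rpl34 carries a C and T run whose ends overlap the SP letters and the ETS letters, Rpl27 carries only a run, Rps13 and Rpl13a carry only the SP letters on the opposite strand, and none of the letters searched were found in the stretches of Rps2 and Rpl11.

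Counts placed in the rows of the members made up a small part of each library. The deposited values are normalized counts per gene, and the members summed to 0.4575%, 0.568% and 0.653% of all normalized counts in controls and to 0.843%, 0.601% and 1.12% in E3–E12 diet libraries. The mean share was 0.560% ± 0.098 (SD, n = 3) in controls and 0.855% ± 0.261 (SD, n = 3) in E3–E12 diet mice. The groups overlapped, because the second E3–E12 diet library lay below the third control, and the third E3–E12 diet library held the largest share of all 6. Genes encoded by the mitochondrial genome took 15.5%, 6.69% and 18.5% of the counts in controls and 13.8%, 10.3% and 23.0% in E3–E12 diet libraries, and were also highest in E3–E12 diet replicate 3. The part of that share in the members' level was not tested beyond leaving those genes out of the total, after which the members took 0.5415%, 0.609% and 0.8015% in controls and 0.979%, 0.669% and 1.46% in E3–E12 diet libraries. In pooled tissue, fewer cells of a type and less RNA per cell cannot be told apart.

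Both subunits followed the same order across libraries, except in control replicate 2. Large-subunit genes took 0.263%, 0.380% and 0.363% of the counts in controls and 0.5345%, 0.347% and 0.652% in E3–E12 diet libraries. Small-subunit genes took 0.194%, 0.188% and 0.2905% in controls and 0.309%, 0.254% and 0.470% in E3–E12 diet libraries. The ratio of large- to small-subunit sums was 1.36, 2.02 and 1.25 in controls and 1.73, 1.37 and 1.39 in E3–E12 diet libraries, with means of 1.54 ± 0.42 and 1.49 ± 0.21 (SD, n = 3 each). The difference of -0.046 between the means was smaller than the spread within either group. The direction turned when control replicate 2, E3–E12 diet replicate 2 or E3–E12 diet replicate 3 was left out. Without control replicate 2 the difference was 0.19.

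**Figure D1:**
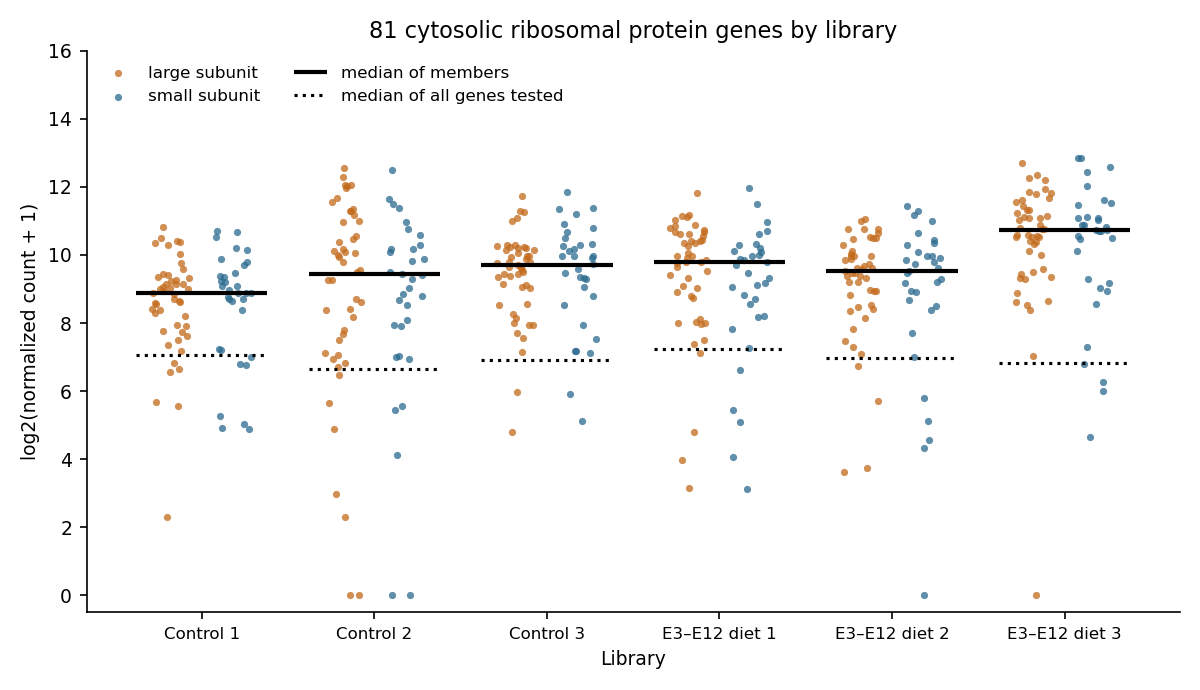
Levels of the 81 members whose mean normalized count reached 10, as log2(normalized count + 1), in each of the 6 libraries (large subunit in orange, small subunit in blue, 1 point per gene). The solid line, the median of members, is lowest in control 1 (8.88) and highest in E3–E12 diet 3 (10.73), while the dotted line, the median of all genes tested, lies between 6.65 and 7.25. Control 2 has the widest spread of points and holds 4 of these members at 0.

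Levels of different genes were compared as mean normalized counts over the 6 libraries per 1000 bases of the longest annotated transcript. The highest levels were those of Rps29, a zinc-binding protein of the small subunit, at 6505, Rplp1 of the acidic stalk at 4244, Rpl41, the smallest ribosomal protein, at 3473, and Rps6, the target of the S6 kinases, at 3062. Rps4x (2545), Rpl23 (2440), Rps9 (2106), Rpl19 (2093), Rpl10a (2025) and Rpl7a (1992) followed. On the length of the longest protein-coding transcript, Rps29, Rplp1, Rpl41 and Rpl10a held the highest levels, and Rps9, Rpl19 and Rpl7a stood at ranks 13, 14 and 11.

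The order within this group is not firm, since single libraries spread widely. Per 1000 bases, Rps29 stood at 3575, 969.8 and 8030.0 in controls and at 4364, 6022 and 16070.0 in E3–E12 diet libraries. Rplp1 stood at 585, 6525 and 1344 in controls and at 4608, 2876 and 9522 in E3–E12 diet libraries. Control replicate 2 thus had far more Rplp1 than Rps29, while the other controls had the opposite order. Neighbours from Rpl41 to Rpl7a differed by less than the spread of each gene over libraries.

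At the other end, 3 members had a mean below 10 normalized counts and were not tested: Rpl3l and Rpl39l, paralogs known from muscle and testis, and Rps3a3, which the GENCODE annotation calls a processed pseudogene. Among those tested, Rpl18, Rps26 and Rps25 had low levels per 1000 bases, at 19.0, 39.3 and 55.3. The annotated genes Rpl10l, Rpl22l1, Rpl32l, Rpl6l, Rps3a2 and Rps12 are not analysed here, so the pair Rpl22 and Rpl22l1 could not be compared.

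Members varied together from library to library. Over the 6 libraries the correlation of each member with the mean of the other members had a median of 0.62, against 0.02 for the correlation of the other 17926 genes tested with the mean of the members. After the diet means were taken out, the medians were 0.59 and -0.005. Rpl7a followed the others most closely (r = 0.99), while Rps4l (-0.21) and Rpl7l1 (-0.05) went against them or apart from them. These values are descriptions over 6 libraries, in which all genes share the depth and handling of a library.

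No ribosomal protein gene passed the test of diet. Log2(normalized count + 1) was compared between diets for the 18007 genes whose mean normalized count reached 10, with limma, two-sided, and Benjamini-Hochberg adjustment at a threshold of 0.1. Of the 81 members, 0 passed (smallest adjusted p = 0.999), as did 0 of all genes tested (0.0%, smallest adjusted p = 0.225). An unadjusted p under 0.05 was reached by 4 members (4.94%), all higher in E3–E12 diet mice, namely Rpl27, Rpl11, Rps13 and Rpl7, against 1.82% of all genes in either direction.

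The fold changes of the members nevertheless lay mostly on one side of 0. A log2 fold change above 0, that is a higher mean log2 level in E3–E12 diet mice, was measured in 69 of 81 members (85.2%) against 54.4% of all genes tested. It was above 0 in 43 of 48 large-subunit and in 26 of 33 small-subunit genes. The median log2 fold change was 0.53 over members, 0.53 over the large subunit, 0.54 over the small subunit and 0.09 over all genes tested, and the median standard error of a member was 0.76. The values of both diets did not overlap in 11 members (13.6%), all with E3–E12 diet libraries higher, against 2.99% of all genes in that direction. In the other direction it was 0 members, against 2.91% of all genes.

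**Figure D2:**
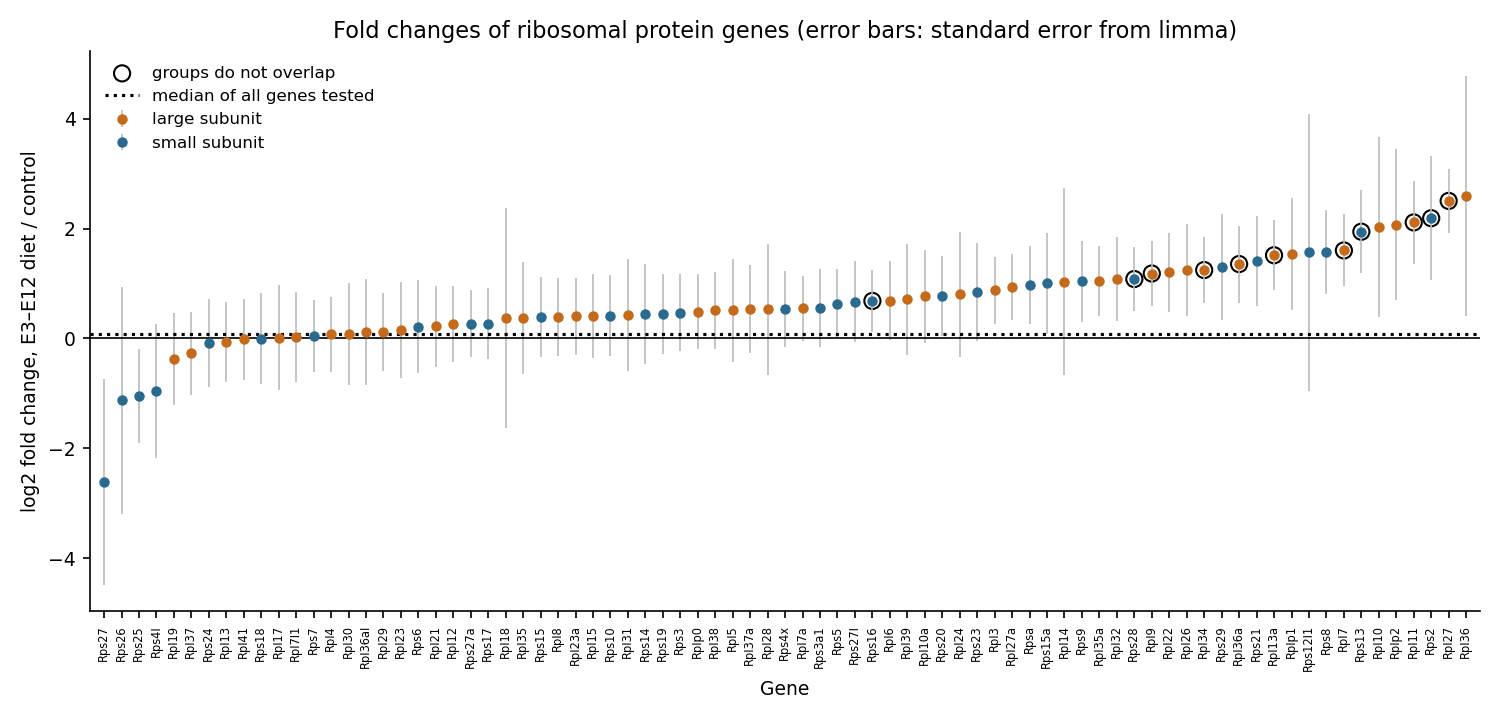
Log2 fold changes (E3–E12 diet over control) of 79 of the 81 members tested, in ascending order, with standard errors from limma. Points run from -2.62 (Rps27) to 2.59 (Rpl36), 69 lie above 0, and rings mark the 11 members whose groups did not overlap. The dotted line is the median of all genes tested, 0.09.

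This lean rested largely on 1 library. E3–E12 diet replicate 3 had the highest value of all 6 libraries in 50 of the 81 members. Control replicate 2 had the highest in 17 and control replicate 3 in 11. Control replicate 1 had the lowest value in 36 members and control replicate 2 in 26. Without E3–E12 diet replicate 3, 49 of 81 members had a log2 fold change above 0 (60.5%, against 54.7% of all genes), and the median was 0.11 for members and for all genes alike. The groups then did not overlap in 11 members with E3–E12 diet mice higher (13.6% of members against 7.90% of all genes) and in 2 with them lower, against 6.53% of all genes. Without control replicate 1, 55 members lay above 0 and the median was 0.38 against 0.18 for all genes.

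**Figure D3:**
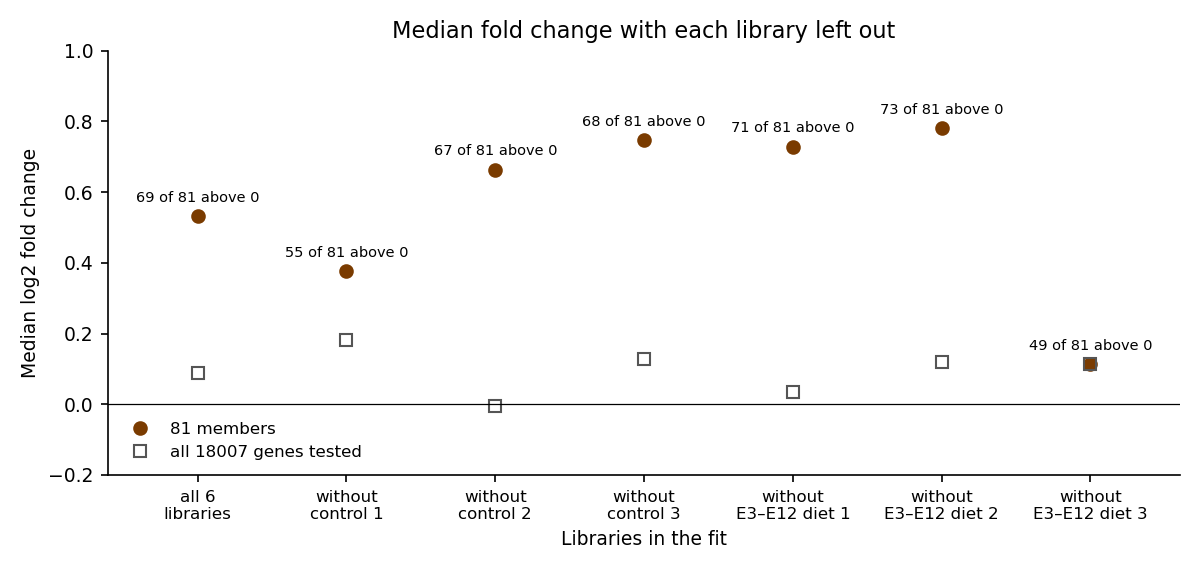
Median log2 fold change (E3–E12 diet over control) of the 81 members (filled circles) and of all 18007 genes tested (open squares), with all 6 libraries and in fits that leave out 1 library each, and the number of members above 0. The members' median lies between 0.38 and 0.78 in every fit except that without E3–E12 diet replicate 3, where it meets the value of all genes at 0.11.

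Among the large-subunit genes without overlap, Rpl27 had the highest log2 fold change. It had 45.9, 49.6 and 61.4 normalized counts in controls and 253.5, 223.9 and 471 in E3–E12 diet libraries. Every E3–E12 diet library was thus well above every control, a log2 fold change of 2.50 ± 0.58 (standard error, unadjusted p = 0.00402 and adjusted p = 0.999, limma). Rpl27 (ENSMUSG00000063316, GRCm38 chromosome 11, 101442298 to 101445529, plus strand) encodes a protein of the outer face of the large subunit. With the counts of its pseudogene copies added, described further on, its groups overlapped and the log2 fold change was 0.68. The value of Rpl27 alone stayed between 2.18 and 2.71 when any 1 library was left out, but 53.0% of its transcript, in windows of 50 bases, is also found in other annotated genes.

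Rpl11 and Rpl5 bind the small RNA of the large subunit together and, when free of ribosomes, bind the p53 regulator MDM2. Rpl11 had 212, 718.5 and 245 normalized counts in controls and 2206, 786 and 1752 in E3–E12 diet libraries. The second library of each group lay close together, and the others were apart by far more (log2 fold change 2.11, standard error 0.76, unadjusted p = 0.0282 and adjusted p = 0.999, limma). With copies added its groups overlapped too, at 0.96. Rpl5 had 401, 2632 and 379 in controls and 1314, 587 and 1511 in E3–E12 diet libraries, so its groups overlapped (log2 fold change 0.51, standard error 0.94).

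Rpl7, a protein that contacts the same small RNA, had 773, 416 and 655 normalized counts in controls and 1647, 1106 and 3245 in E3–E12 diet libraries. All 3 of the latter were higher (log2 fold change 1.60, standard error 0.66, unadjusted p = 0.0464 and adjusted p = 0.999, limma). Rpl13a, also known as part of a complex that silences inflammatory mRNAs in myeloid cells, had 162.5, 121.5 and 372 in controls and 542, 493 and 648 in E3–E12 diet libraries. Its log2 fold change was 1.51 (standard error 0.64).

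The remaining large-subunit genes without overlap had smaller differences. Rpl36a had 562, 178 and 518.5 normalized counts in controls and 643.5, 1004 and 1353 in E3–E12 diet libraries, a log2 fold change of 1.35 (standard error 0.70). Rpl34 had 518, 290.2 and 550.0 in controls and 956, 784.5 and 1474 in E3–E12 diet libraries, a log2 fold change of 1.25 (standard error 0.60). Rpl9, which lies near the base of the stalk, had 682, 1108 and 777 in controls and 1583, 1435 and 3025 in E3–E12 diet libraries, a log2 fold change of 1.18 (standard error 0.60).

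The stalk proteins recruit elongation factors to the ribosome. Rplp0, its base, had 868, 1991 and 2051 normalized counts in controls and 1309, 2038 and 3658 in E3–E12 diet libraries, for a log2 fold change of 0.49 (standard error 0.69). Rplp1 had 292, 3256 and 671 in controls and 2299, 1435 and 4752 in E3–E12 diet libraries (1.54, standard error 1.02). Rplp2 had 377, 28.5 and 1197 in controls and 885, 595 and 1894 in E3–E12 diet libraries (2.07, standard error 1.38). Rplp1 and Rplp2, which bind the ribosome as a pair, thus diverged in control replicate 2, where Rplp1 was at its highest among controls and Rplp2 at its lowest of all libraries. All 3 stalk genes overlapped between groups.

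Control replicate 2 also set the highest fold changes that came without separation of the groups. Rpl36 had the highest of all members, 2.59 (standard error 2.18), with 99.7, 0 and 534 normalized counts in controls and 179, 177 and 368 in E3–E12 diet libraries. Without control replicate 2 it was -0.026. Rpl10, a protein added late to the large subunit beside its catalytic centre, had 312, 6.80 and 693 in controls and 524, 339 and 639 in E3–E12 diet libraries, which gave 2.03 (standard error 1.64) with that library and 0.058 without it. Rplp2 stood at 0.57 without it. Rpl18, listed at 0 in control replicate 2, had 49.98, 0 and 140.5 in controls and 7.88, 12.4 and 129 in E3–E12 diet libraries (0.37, standard error 1.999).

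Of the large-subunit genes highest per length, Rpl10a had a log2 fold change of 0.77, Rpl7a of 0.55, Rpl23 of 0.16, Rpl41 of -0.016 and Rpl19 of -0.38, each smaller than its standard error. Rpl22, Rpl3 and Rpl39, members of paralog pairs, had values of 1.20, 0.87 and 0.71 (standard errors 0.71, 0.62 and 1.01).

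In the small subunit, Rps2 and Rps13 had the highest fold changes without overlap. Rps2, which lines the entry of the mRNA channel, had 607, 45.9 and 701 normalized counts in controls and 1252, 883 and 1715 in E3–E12 diet libraries (log2 fold change 2.19, standard error 1.13). Control replicate 2 was far below the other controls, and without it the log2 fold change was 0.92. Rps13 had 37.6, 122.9 and 184 in controls and 292, 330.3 and 516 in E3–E12 diet libraries (1.94, standard error 0.76, unadjusted p = 0.0395 and adjusted p = 0.999, limma). Rps13 kept a log2 fold change between 1.29 and 2.42 whichever library was left out, but with copies added its groups overlapped.

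Rps28 and Rps16 had smaller but separate values. Rps28, at the mRNA exit, had 470.2, 370.2 and 442 normalized counts in controls and 708, 714 and 1444 in E3–E12 diet libraries (log2 fold change 1.08, standard error 0.58). Rps16, whose tail reaches the decoding centre, had 650.3, 1164 and 996.5 in controls and 1278, 1295 and 1888 in E3–E12 diet libraries (0.68, standard error 0.57). For each of the 11 members without overlap an exact permutation test of the log2 levels over the 6 libraries, two-sided, gave p = 0.1, the smallest value that 3 libraries against 3 allow.

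**Figure D4:**
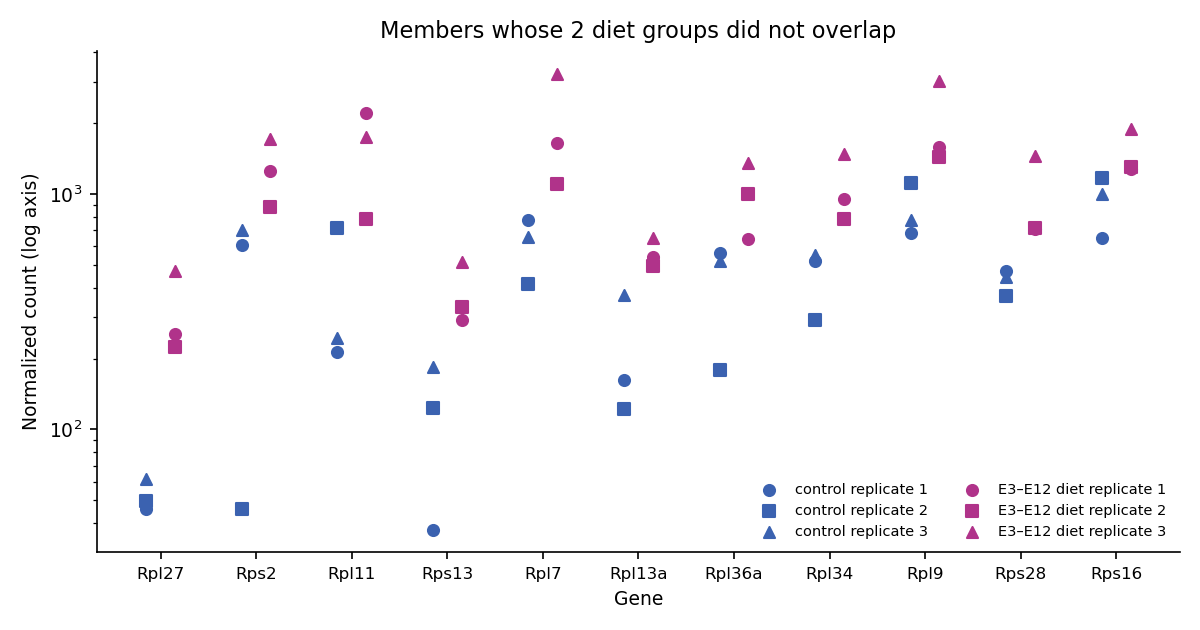
Normalized counts (log axis) of the 11 members whose groups did not overlap, with controls in blue and E3–E12 diet libraries in magenta and 1 symbol per replicate number. Rpl27 has controls from 45.9 to 61.4 against 223.9 to 471 in E3–E12 diet libraries, and in Rps2 control replicate 2 (45.9) stands far below the other controls.

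The lowest fold changes of the small subunit came from genes with 1 high control or from weakly measured genes. Rps27, a zinc-binding protein, had 108, 16.5 and 2355 normalized counts in controls and 7.74, 19.3 and 109 in E3–E12 diet libraries. Control replicate 3 held most of this signal, and without it the log2 fold change of -2.62 (standard error 1.88) was -0.70. Rps26, which sits at the mRNA exit, had 29.4, 0 and 143 in controls and 15.6, 0 and 24.4 in E3–E12 diet libraries (-1.13, standard error 2.06). Rps25, needed for initiation at some internal entry sites, had 28.7, 126.0 and 139 in controls and 32.8, 22.5 and 75.7 in E3–E12 diet libraries (-1.04, standard error 0.86).

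Several small-subunit genes that are known for roles beyond the ribosome overlapped between diets. Rps6 had 1673, 5726 and 1933 normalized counts in controls and 1573, 2493 and 7329 in E3–E12 diet libraries (log2 fold change 0.21, standard error 0.84). Rpsa, also described as a laminin receptor, had 149, 525 and 143 in controls and 416, 357.5 and 573.5 in E3–E12 diet libraries (0.97, standard error 0.72). Rps27a, made as a fusion with ubiquitin, had 665, 412 and 647.5 in controls and 448, 628.5 and 1107 in E3–E12 diet libraries (0.27, standard error 0.62). Of the small-subunit genes highest per length, Rps29 had a log2 fold change of 1.31 (standard error 0.97), Rps9 of 1.04 (0.74) and Rps4x of 0.54 (0.69).

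Paralogs made up a minor part of most pairs, but not of all. Rpl3l was listed at 0 in 5 libraries and Rpl39l in 4, and Rps3a3 never exceeded 0.326% of the level per 1000 bases of its pair with Rps3a1, which had a log2 fold change of 0.55 (standard error 0.71). Rpl7l1, a relative of Rpl7 known from ribosome assembly, held 12.4%, 61.2% and 18.6% of the pair's level per 1000 bases in controls and 9.26%, 19.9% and 6.94% in E3–E12 diet libraries. It had 179, 1070.0 and 244 normalized counts in controls and 274, 449.5 and 395 in E3–E12 diet libraries, a log2 fold change of 0.02 (standard error 0.82), beside the value of 1.60 for Rpl7. The difference between the pair's members was not tested.

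Rpl36al held 30.4%, 27.2% and 46.9% of its pair with Rpl36a per 1000 bases in controls and 29.8%, 7.90% and 22.9% in E3–E12 diet libraries. Its own log2 fold change was 0.11 (standard error 0.97). Rps27l, a target of p53, held 57.9%, 75.1% and 2.85% of its pair with Rps27 in controls and 95.9%, 76.9% and 62.6% in E3–E12 diet libraries. Rps27l itself stayed within 42.6 to 156 normalized counts in all libraries (log2 fold change 0.67, standard error 0.73), so the shifts of this share followed Rps27. Rps4l, annotated as a transcribed pseudogene, held between 1.17% and 2.62% of its pair with Rps4x in 5 libraries and 29.7% in control replicate 2, where it had 629.5 normalized counts against at most 63.4 elsewhere. Without that library its log2 fold change turned from -0.96 (standard error 1.22) to 0.445. Rps12l1, annotated as a processed pseudogene of Rps12, had 396, 0 and 963 in controls and 96.5, 206 and 494 in E3–E12 diet libraries (1.57, standard error 2.53).

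Counts in pseudogene copies bear on these values. The table holds 160 rows named as ribosomal protein pseudogenes, of which 34 had a mean of at least 10. By sequence, 124 rows that are named or annotated as pseudogenes shared at least 50% of their own 50-base windows with 1 of 55 members and are called copies here. GENCODE nevertheless annotates 3 of them, Rpl10-ps3, Rpl9-ps6 and Rps12-ps3, as protein-coding. For every 100 counts in members, copies had 24.2, 8.50 and 31.7 in controls and 8.22, 12.3 and 14 in E3–E12 diet libraries. Copies thus took fewer counts than members in every library. How the authors placed reads that match several genes is not stated in the sources used here.

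Rpl10-ps3, a pseudogene by name and protein-coding by annotation, had the highest counts of the rows named as pseudogenes. It had 2790.0, 3954 and 4569 normalized counts in controls and 2217, 2512 and 9078 in E3–E12 diet libraries, above the counts of Rpl10 itself in every library. Copies held 91.3% of all counts of Rpl10 and its copies. With them added, the log2 fold change of Rpl10 moved from 2.03 to -0.035 (standard error 0.73). The other high pseudogene rows came and went between libraries. Rpl31-ps8 had 989, 0 and 2327 in controls and 0, 319 and 475 in E3–E12 diet libraries. Rpl10a-ps1 had 556, 0 and 1659 in controls and was listed at 0 in all E3–E12 diet libraries, and Rps6-ps4 had 1473 in control replicate 3 and was listed at 0 in the others. Rpl28-ps1 was measured in every library, with 237, 395 and 747 in controls and 184, 219 and 1008 in E3–E12 diet libraries.

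Copies held at least 10% of the sum in 22 of the 55 members. Among these 22, the share in copies was higher in every control than in every E3–E12 diet library in Rpl27 and Rpl11. The copies of Rpl27 held 86.3%, 84.3% and 88.8% of the sum in controls and 49.2%, 47.2% and 58.6% in E3–E12 diet libraries. With copies added, Rpl27 had 336, 316 and 548 normalized counts in controls and 499, 424 and 1139 in E3–E12 diet libraries. Its groups then overlapped, with a log2 fold change of 0.68 (standard error 0.65) in place of 2.50. The copies of Rpl11 held 66.2%, 59.0% and 83.1% in controls and 20.6%, 36.3% and 48.5% in E3–E12 diet libraries, and the sum had a log2 fold change of 0.96 (standard error 0.71) in place of 2.11. In Rpl30 every E3–E12 diet library instead had a higher share in copies than every control. The mean share was higher in controls in 16 of the 22.

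Of the 11 members without overlap, 8 remained so with their copies added (9.88% of members, against 2.97% of all genes in that fit). These included Rpl7, Rpl9, Rps2, Rps16 and Rps28, where copies held 0.07%, 8.02%, 23.6%, 0.44% and 1.31% of the sum. The adding could thus change little in Rpl7, Rps16 and Rps28. It changed nothing in the other 3, Rpl13a, Rpl34 and Rpl36a, which had no row that met the rule for a copy. Their windows were nevertheless shared with other annotated genes, at 57.4%, 6.93% and 85.5%. The groups of Rpl27, Rpl11 and Rps13 overlapped after the adding. The log2 fold change of Rps13 moved from 1.94 to 1.59. Its sum was 337.5 in control replicate 3, where the copy Rps13-ps2 had 149.9 counts, against 303 in E3–E12 diet replicate 1. Rps2 stayed separate, but its log2 fold change moved from 2.19 to 1.24. Rpl7 alone kept an unadjusted p under 0.05 (unadjusted p = 0.0458 and adjusted p = 0.999, limma). Its single copy was listed at 0 in all libraries but one, and its log2 fold change was 1.60 as before. In the other direction every E3–E12 diet library had a lower sum of Rpl13 and its copies than every control (2.92% of all genes did so), at -0.76 (standard error 0.56), a gene named here after its value was seen. Over all 81 members with copies added, 64 had a log2 fold change above 0 and the median was 0.50, against 0.53 for the members alone.

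**Figure D5:**
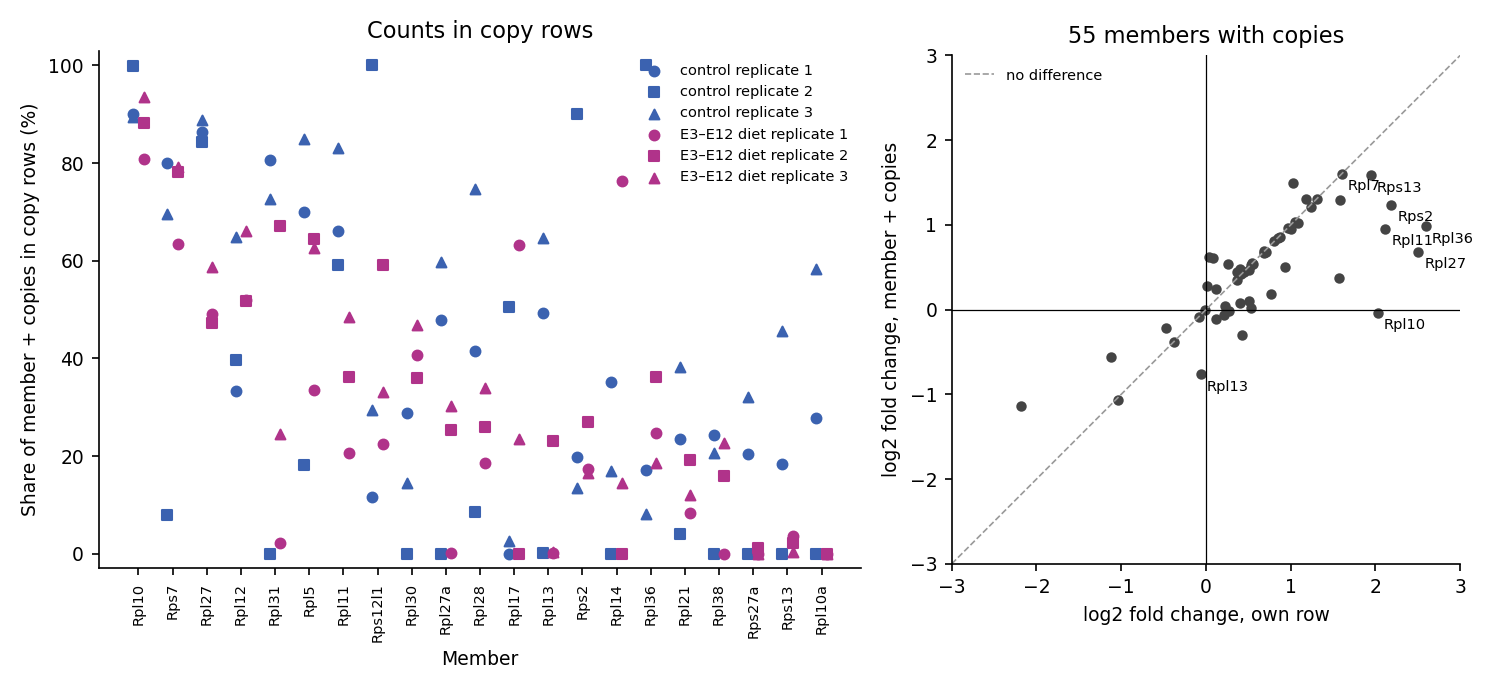
Left, the share of counts of a member and its copies that lies in the copies (%), for 21 of the 22 members where it is at least 10% over all libraries, with 1 symbol per library. Right, log2 fold changes (E3–E12 diet over control) of the 55 members with copies, alone (x axis) and with copies added (y axis). Rpl27, Rpl11 and Rpl10 lie far below the dashed line of no difference, at 0.68, 0.96 and -0.035 with copies added.

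Other genes of the ribosome and its making are given beside the members. Fau and Rack1, which also belong to the cytosolic ribosome but not to the symbol rule, had log2 fold changes of 0.44 and 0.79 (standard errors 0.78 and 0.80). Each overlapped between groups and neither passed the test. Of 76 mitochondrial ribosomal protein genes, 42 had a log2 fold change above 0 with a median of 0.22, and of 68 translation factors, named Eif or Eef, 25 did with a median of -0.08. Of 47 ribosome biogenesis factors 24 did (median 0.03), and of 22 regulators of ribosomal protein synthesis 8 did (median -0.05). None of these genes passed the adjusted threshold (0 calls in limma). The lists had 1, 0, 1 and 1 genes with an unadjusted p under 0.05 (1.32%, 0.0%, 2.13% and 4.55%). Over all genes tested this share was 1.82%. The biogenesis factor was Nop10, a part of the particles that modify ribosomal RNA, with 13.2, 3.92 and 84.5 normalized counts in controls and 392, 64.1 and 120.1 in E3–E12 diet libraries (log2 fold change 3.01, standard error 1.22). Its groups overlapped. The regulator was Taf1d, of the factor that starts transcription by RNA polymerase I, with 12.4, 0 and 10.8 in controls and 225, 82.95 and 110.2 in E3–E12 diet libraries (4.57, standard error 1.13, unadjusted p = 0.00541 and adjusted p = 0.999, limma). Its groups did not overlap. The study's own test, with DESeq2 and an adjusted threshold of 0.1, lists both Rack1 and Taf1d as higher in E3–E12 diet mice. It lists the biogenesis factor Pes1, named here for that listing, as lower. Pes1 had 240, 10750 and 242 normalized counts in controls and 257, 204 and 207 in E3–E12 diet libraries (-1.95, standard error 1.51). The differences between the members and these lists were not tested.

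The named pseudogene rows leaned the other way in their median. Of the 34 that were tested, 15 (44.1%) had a log2 fold change above 0, against 54.4% of all genes tested. Their median was -0.55, and their standard errors had a median of 1.58. Some of these rows, such as Rps6-ps4 (-3.51) and Rpl23a-ps3 (2.39), had counts in 1 library only and passed the filter through it alone. Of the 50 copies that were tested, 27 (54.0%) had a log2 fold change above 0, with a median of 0.05.

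The libraries also differed in other ways. Normalized counts summed to between 9407141 and 17204618 per library, and 10640 genes were listed at 0 in control replicate 2 against 3459 to 7135 in the others. The 12 microglial markers were all in the table and summed to 105400 to 527900 in controls and 104400 to 323400 in E3–E12 diet libraries, with Tyrobp alone at 0, in all 3 E3–E12 diet libraries. The 6 markers of border macrophages, none at 0, summed to 5360 to 19950 and 5220 to 8514. The 6 astrocyte markers summed to 1395 to 1527 in controls and 1941 to 4042 in E3–E12 diet libraries without overlap, with Gfap and Aldh1l1 at 0 in control replicate 2. As a share of the library the astrocyte sums overlapped. They were 0.0155%, 0.00887% and 0.0117% in controls and 0.0430%, 0.0173% and 0.0146% in E3–E12 diet libraries. Oligodendrocyte markers (6 of 6, Mag at 0 in 4 libraries) summed to 4993 to 42920 and 5882 to 23330, and neuronal markers (7 of 7, with Syt1, Rbfox3 and Stmn2 at 0 in control replicate 2 and Slc17a6 in 2 libraries) to 623 to 1537 and 818 to 1596. Endothelial markers (6 of 6, Slco1c1 at 0 in control replicate 2) summed to 5251 to 10850 and 7873 to 11180. Choroid plexus markers (6 of 6, Folr1 at 0 in control replicate 2, Clic6 and Aqp1 in E3–E12 diet replicate 2) summed to 789 to 19100 and 104 to 40460, with the highest sum in E3–E12 diet replicate 1. The 5 neutrophil markers summed to 280.1 to 2029 and 430 to 613, with Ly6g at 0 in 3 libraries, and the 5 erythroid markers to 11.2 to 219 and 2.31 to 95.5, with all but Hbb-bs at 0 in E3–E12 diet replicate 2. The part of these cells in the members' values was not tested.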

How the data were processed

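Microglia from the NST of 3 control and 3 E3–E12 diet litters were measured by RNA sequencing. The authors deposited 1 table of normalized counts per gene, used here as a signal that is never negative. The submitters' processing notes name FastQC, STAR, featureCounts, DESeq2 and GRCm38, without versions or settings. The study describes amplification of the RNA, and the labels name another kit and read length. The table's name mentions surrogate variables, and their use is not given in the sources used here. Low values were not whole multiples of 1 read in enough genes (40.4% to 74.2% of low values within 0.1 of a whole multiple, by library), so no count test was run. The study gives a range of reads per sample, but the depth of each library is not known.

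Log2(normalized count + 1) was fitted, for the 18007 genes whose mean reached 10, with limma 3.58.1 in R 4.3.3 (two-sided, Benjamini-Hochberg adjustment over all genes tested, threshold 0.1), after the fit was tested on simulated data. A fold change on this scale understates the change of low genes. Exact permutation tests ran over libraries. Symbols, lengths, biotypes and shared 50-base windows came from GENCODE M21, and 26507 of 26789 genes had a symbol. The libraries of a group are separate litters. Members and lists were chosen with earlier results of these data known. Genes were named by rule: the 10 highest per 1000 bases, the 6 highest and 6 lowest fold changes, members without overlap, members listed at 0 in a library, both genes of a paralog pair, 9 genes for what they are known for, the 5 highest pseudogene rows, and list genes with an unadjusted p under 0.05. Alternatives were other pseudocounts, filters, scalings, variance models, covariates, left-out libraries, and, chosen after seeing the data, the adding of copies to members and the length of the longest protein-coding transcript. No sample column was left out (0). The values of some genes that these rules name are not reported here, although the genes stay in all fits and counts.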

Additional observations from a re-analysis of the deposited data

How the results depend on the processing

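In every alternative 0 members passed the adjusted threshold. The number of members with an unadjusted p under 0.05 (4) was 7 with the first residual principal component as a covariate (8.64%, against 7.90% of all genes). It was 10 with trended and robust variances (12.3% against 1.53%) and 1 with copies added (1.23% against 1.79%). With a library left out it lay between 1 and 8. It was 1 (1.23%) without control replicate 1, E3–E12 diet replicate 1 or E3–E12 diet replicate 3, against 3.06%, 1.93% and 1.88% of all genes. Without control replicate 2 it was 8 (9.88% against 2.38%). The number of members higher in every E3–E12 diet library (11) was 18 with libraries scaled to the same total (22.2% against 2.98% of all genes) and between 11 and 27 with a library left out, with 27, 22 and 19 when it was control replicate 2, control replicate 3 or E3–E12 diet replicate 2, where 6.70%, 6.88% and 6.88% of all genes did so. Scaling to the same total moved the median of all genes from 0.09 to 0.20 and that of members from 0.53 to 0.65. With a library left out, the difference in share lay between 0.162 and 0.423 percentage points and that in the large- to small-subunit ratio between -0.192 and 0.192. Of the genes named by rule, those that turned direction were Rpl41 (0.105 with the same total, 0.188 with quantile normalization), Rpl18 (-0.231 with a pseudocount of 10, -0.81 with quantile normalization), Rpl36al (-0.025 with quantile normalization), and, with copies added, Rps6 (-0.061), Rpl10 (-0.035) and Rps27a (-0.019). Over all 81 members, 5 turned with copies added (among them Rpl31, at -0.30), 4 with the same total, 8 with quantile normalization and 1 with a pseudocount of 10. With a library left out between 4 and 20 members turned, 20 of them without E3–E12 diet replicate 3, and 38 turned at least once. Among the named genes that did, the ranges were these: Rpl18 from -1.77 to 1.80, Rpl19 from -1.02 to 0.38, Rpl23 from -0.35 to 0.96, Rpl36 from -0.026 to 4.51, Rpl36al from -0.66 to 0.76, Rpl39 from -0.17 to 1.36, Rpl41 from -0.55 to 0.43, Rpl7l1 from -0.48 to 0.80, Rps12l1 from -1.52 to 3.44, Rps26 from -3.14 to 0.44, Rps27a from -0.082 to 0.57, Rps3a1 from -0.001 to 0.87, Rps4l from -1.69 to 0.45 and Rps6 from -0.42 to 0.77. The causes were not tested. Members that shared under 50% of their windows with other genes (45) had 38 log2 fold changes above 0 and a median of 0.49. Of these, 4 did not overlap between groups (8.89%) and 1 had an unadjusted p under 0.05 (2.22%). Members that shared at least 50% (36) had 31 above 0 and a median of 0.62. Among them 7 did not overlap (19.4%) and 3 had an unadjusted p under 0.05 (8.33%). The difference between these sets was not tested. With a mean of at least 50 as the filter, 1 gene of all, no member, passed the threshold. Same-numbered libraries deviated from their group means with correlations across genes of 0.26, 0.035 and 0.14, and 5 of the 6 libraries correlated best with the library of their own number. Since 1 of the 3 correlations was under 0.1, the numbers were not taken to pair the libraries. With the replicate number as a block 3 members and 468 genes (327 without it) had an unadjusted p under 0.05, and 0 passed the adjusted threshold. With quantile normalization overlap of groups was not computed. Depth per library is unknown, and at a median standard error of 0.76 differences near the median of the members were not detectable in single genes.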
